A study of Mus musculus with 2254 samples.

Results

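The genes described here are those of the motile cilium axoneme, taken by symbol: every row of the count table whose symbol begins with Dnah, Dnai, Dnal, Rsph, Tekt, Cfap or Spag followed by a number or a letter and number. The rule gave 65 of the 30950 rows. They were read in single brain cells of adult C57BL/6 mice carrying SM22-Cre;Rosa26-stop-tdTomato, sorted by fluorescence into multiwell plates and sequenced with Smart-seq2, a full-length method for polyadenylated RNA. Every mouse carried this reporter, in which a smooth muscle promoter drives Cre, and the groups differed in Notch3, with plates 043, 467 and 471 labelled KO and plates 044, 468 and 469 labelled WT. The labels name no animal, no pooling and no sort gate, so each genotype counted as 1 sample, no test was made, and the spread between plates is given as a description that may be technical.

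Motile cilia beat because dynein motors, arranged as outer and inner arms on the doublet microtubules, slide neighbouring doublets against each other. Radial spokes and a central pair of microtubules time the motors, tektins and other inner proteins brace the doublets, and assembly factors fold the arms in the cytoplasm before they enter the cilium. In the brain such cilia stand in tufts on ependymal cells, which line the ventricles and move cerebrospinal fluid, whereas most other brain cells carry at most a single primary cilium without these motors.

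Of 2254 deposited cells, 2252 had at least 50000 gene-assigned reads and 1000 detected genes. Totals of the deposited cells ran from 49473 to 763059 reads. Levels are in CPM, a gene's reads scaled to a common total for each cell, and are averaged over the cells of a plate. Ependymal cells were those with a summed Ccdc153 and Tmem212 level of 100 CPM or more, which took 204 cells and left 2048 others. The split was wide: the lowest ependymal cells had 177 and then 822 CPM, the highest other cells 86.5 and then 34.1 CPM, and 1797 of the others were at 0. There were 23, 99 and 40 ependymal cells on KO plates 043, 467 and 471, while WT plates 044, 468 and 469 had 10, 13 and 19. That was 14.4% of KO cells (95% Clopper-Pearson interval 12.4 to 16.6) and 3.73% of WT cells (2.70 to 5.01). These intervals cover counting error only. Ependymal cells had a median of 296142 reads and 6263 genes, the others 291404 reads and 4339 genes.

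The targeted gene was read first, in smooth muscle cell-like cells (plate means over 21 to 269 cells). Notch3 stood at 61.4, 95.4 and 114 CPM on KO plates 043, 467 and 471, while WT plates 044, 468 and 469 had 165, 680 and 930 CPM. All WT plates were above all KO plates, but plate 044, labelled WT, lay much nearer to the KO plates than to the other WT plates, so comparisons of genotype are also given without it. In ependymal cells Notch3 averaged 4.24 CPM and checks nothing there.

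The ependymal label held against its markers. All 12 of the markers listed for it were read in at least 25% of these cells, but Ccdc153 and Tmem212 are among them and were fixed by the rule. Of those the rule did not use, Foxj1, the transcription factor that switches on motile cilium genes, stood at 275 CPM (SD 31.1 over 6 plates) and was read in 98.5% of them against 2.05% of the others. Of the other cell types' lists, 7 of 8 astrocyte markers were read in at least 25% of ependymal cells, with a summed median of 2576 CPM against 20384 CPM in astrocyte-like cells. For smooth muscle it was 5 of 8 markers, with plate means of 240 to 2127 CPM against a median of 19401 CPM in smooth muscle cell-like cells. For choroid plexus epithelium it was 2 of 8, with a summed median of 326 CPM (plate means 321 to 490), and its defining marker Ttr was at 7.20 CPM. For oligodendrocytes it was 3 of 8, with a summed median of 446 CPM against 33933 CPM in oligodendrocyte-like cells. A few wells stood apart: well F24 of plate 469 met the ependymal rule at 177 CPM but had 1 read member, well D20 of plate 467 had no Ccdc153 or Tmem212 read but grouped with ependymal cells in the clustering, and well K24 of plate 467 grouped with smooth muscle cells while holding 86.5 CPM of the pair.

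The promoters of these genes were searched for motifs of ciliary transcription factors, and most held none. RefSeq's promoter table for GRCm38.p6 held 53 of the 65 members, with 61 promoters. The 250 bases before each start were searched on both strands for GTTGCC and GTTNCCATG, which resemble the sites of RFX factors and can overlap each other, and for TGTTTAC, which resembles a forkhead site. GTTGCC stood in 16 of 61 member promoters (26.2%) against 10.4% of all 32851 promoters, GTTNCCATG in 4 (6.56%) against 1.56%, and TGTTTAC in 4 (6.56%) against 3.17%. Any of these motifs was found in 21 of 61 (34.4%) against 14.1%. In the 40 promoters of members that were called higher in ependymal cells and under 10 CPM elsewhere, GTTGCC stood in 12 (30.0%) and GTTNCCATG in 2 (5.0%), but TGTTTAC in 1 (2.5%). A match is a run of letters, not a bound site. For display, Spag6, Spag6l and Cfap53 were left out of the choice, whether or not they held a motif. Of the other members holding a motif, the 4 with the highest ependymal level were Cfap44 (chr16:44394549-44394798, plus strand), Cfap43 (chr19:47837362-47837611, minus strand), Cfap46 (chr7:139683816-139684065, minus strand) and Cfap52 (chr11:67965643-67965892, minus strand). They are shown 5′ to 3′ on the strand of the gene, ending at the base before the start, with the motif in capitals. Cfap44 and Cfap46 hold GTTGCC on the reverse strand (read as GGCAAC), Cfap43 holds TGTTTAC on the reverse strand, and Cfap52 holds GTTNCCATG.
Cfap44: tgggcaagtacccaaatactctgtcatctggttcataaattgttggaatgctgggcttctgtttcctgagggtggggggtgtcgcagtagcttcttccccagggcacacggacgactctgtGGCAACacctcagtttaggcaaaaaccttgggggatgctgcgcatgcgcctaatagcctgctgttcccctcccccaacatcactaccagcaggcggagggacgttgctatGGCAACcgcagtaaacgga
Cfap43: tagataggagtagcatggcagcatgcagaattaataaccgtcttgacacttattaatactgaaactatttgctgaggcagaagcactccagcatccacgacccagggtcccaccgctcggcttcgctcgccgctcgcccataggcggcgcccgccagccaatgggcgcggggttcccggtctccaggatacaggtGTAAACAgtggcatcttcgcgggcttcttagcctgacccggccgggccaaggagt
Cfap46: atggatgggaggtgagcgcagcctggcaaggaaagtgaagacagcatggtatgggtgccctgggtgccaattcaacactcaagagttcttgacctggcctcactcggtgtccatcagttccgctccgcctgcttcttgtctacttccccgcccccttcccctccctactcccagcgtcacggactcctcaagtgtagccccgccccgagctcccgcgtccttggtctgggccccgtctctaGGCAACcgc
Cfap52: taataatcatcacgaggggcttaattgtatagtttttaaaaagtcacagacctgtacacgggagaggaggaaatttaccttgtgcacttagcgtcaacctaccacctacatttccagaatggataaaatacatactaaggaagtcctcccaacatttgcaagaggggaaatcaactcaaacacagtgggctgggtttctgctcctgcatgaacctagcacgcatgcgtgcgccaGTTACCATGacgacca

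Most members were far higher in ependymal cells than in the other cells of the same plates. A member was called higher or lower where the mean reached 10 CPM on 1 side or the other, the difference was at least 2-fold on the log2(CPM + 1) scale, and the plate values of the 2 sides did not overlap. Of 65 members, 55 reached 10 CPM, 50 were called higher in ependymal cells and 0 lower, where the same rule called 12.2% of 13053 measured genes higher and 11.9% lower. The median difference of the 55 measured members was 6.35 on the log2 scale, against -0.26 over all measured genes. The other 10 members were under 10 CPM on both sides. No test stands behind these calls, and the members had reached 10 CPM mostly through the ependymal side. The sides were set by 2 ependymal marker genes, so genes read along with that pair are higher in part through the choice of cells.

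**Figure D1:**
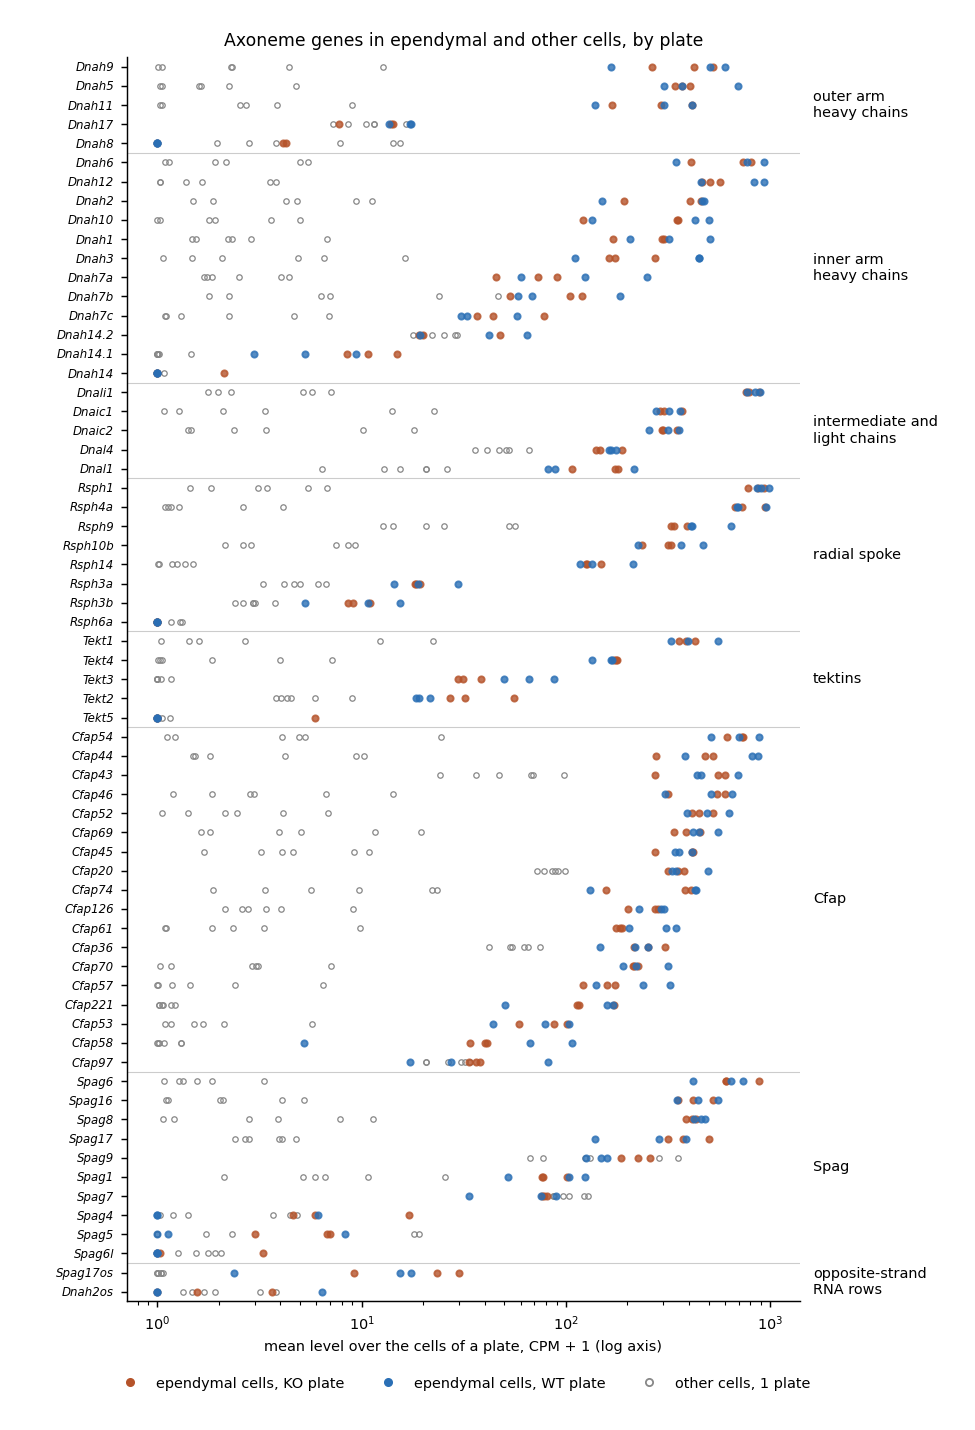
Level of each of the 65 members (CPM + 1, log axis) on every plate, grouped by role. Filled dots are ependymal cells on KO and WT plates, open grey dots all other cells. For the 50 members called higher no ependymal dot overlaps a grey one, and the spoke head gene Rsph1 is highest with a mean of 885 CPM.

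Outer arm heavy chains are the motors that give the beat most of its power. Dnah9 had plate means of 263, 424 and 525 CPM on KO plates 043, 467 and 471, while WT plates 044, 468 and 469 had 166, 508 and 601 CPM. In other cells the 6 plate means lay between 0.0086 and 11.8 CPM, so the sides did not overlap. Dnah5, a partner motor in the same arm, averaged 412 CPM (SD 141 over 6 plates) against 1.06 CPM, and Dnah11 averaged 287 CPM (SD 117) against 2.36 CPM. Dnah17 and Dnah8, the outer arm chains known from sperm, did not follow: Dnah17 had 13.0 CPM in ependymal and 9.94 CPM in other cells and was not called, and Dnah8 had 1.07 CPM against 6.67 CPM, both under the minimum. Of the 5 outer arm chains, then, 3 were called higher.

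Inner arm heavy chains shape the bend. Of 12 rows, 9 were called higher. Dnah6 led in level with 407, 808 and 731 CPM on the KO plates and 345, 770 and 931 CPM on the WT plates, against 1.80 CPM in other cells. Dnah12 had 566, 461 and 509 CPM on the KO plates and 459, 933 and 830 CPM on the WT plates, against 1.08 CPM. Dnah2 averaged 356 CPM and Dnah10 314 CPM, with 4.51 and 1.39 CPM in other cells. Both were lower on plates 043 and 044 than on every other plate. Dnah7a, Dnah7b and Dnah7c are near-identical copies, and reads that fit more than 1 of them could be split or lost in counting, so their separate levels of 106, 97.1 and 45.6 CPM are uncertain. The symbol Dnah14 stood on 3 rows. The row kept as Dnah14 had 10 reads in 204 ependymal cells, the second had a mean of 7.61 CPM, and the third had 34.5 CPM in ependymal against 22.8 CPM in other cells and was not called.

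Intermediate and light chains hold the arms together and to the doublet, and all 5 were called higher. Dnali1, a light intermediate chain of inner arms, had 880, 783 and 761 CPM on the KO plates and 767, 889 and 842 CPM on the WT plates, against 3.01 CPM in other cells. That spread is narrow: the SD over 6 plates was 57.6 CPM on a mean of 820 CPM. The outer arm intermediate chains Dnaic1 and Dnaic2 had nearly equal levels, 319 CPM (SD 38.0) and 311 CPM (SD 38.0). The light chains Dnal4 and Dnal1 had 162 and 140 CPM, and differed less from other cells, where they stood at 47.9 and 16.0 CPM.

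Radial spoke genes included the highest member of all. Rsph1, a spoke head protein, had 774, 935 and 865 CPM on the KO plates and 895, 984 and 859 CPM on the WT plates, a mean of 885 CPM (SD 71.8), against 2.68 CPM in other cells. Its plate values overlapped between genotypes, and it was read in 99.5% of ependymal cells. The spoke head genes Rsph4a and Rsph9 averaged 778 CPM (SD 133) and 419 CPM (SD 114), against 0.903 and 29.3 CPM in other cells, and Rsph10b averaged 322 CPM. Rsph14 had 143 CPM. The stalk genes Rsph3a and Rsph3b are close copies whose reads may be shared. They had only 18.8 and 9.01 CPM, and Rsph3b stayed under the minimum. Rsph6a, a spoke head protein known from testis, had no read: 0 of 204 cells, which allows a share of cells with a read of up to 1.47%. Of the 8 spoke genes 6 were called higher.

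Tektins form filaments inside the doublets, and 4 of 5 were called higher, at levels that ranged widely. Tekt1 had 356, 427 and 387 CPM on the KO plates and 327, 554 and 393 CPM on the WT plates, and Tekt4 averaged 164 CPM with an SD of only 15.6 CPM. Tekt3 and Tekt2 averaged 49.4 and 28.0 CPM and were read in 23.5% and 24.0% of ependymal cells, against 0.195% and 2.73% of other cells. Tekt5, a tektin of sperm, was read in 4 ependymal cells, at a mean of 0.813 CPM.

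The Cfap genes, named only as cilia and flagella associated, had 17 of 18 called higher. Cfap54, a central apparatus protein, had 613, 725 and 736 CPM on the KO plates and 511, 705 and 879 CPM on the WT plates, against 5.83 CPM in other cells. Cfap44 and Cfap43, which tether inner arm motors to the doublet, averaged 558 CPM (SD 239) and 501 CPM (SD 146), and Cfap46, of the central apparatus, 486 CPM (SD 145). Cfap43 stood out by its level outside ependymal cells, 56.0 CPM, where Cfap44 had 3.78 CPM. Cfap97 was the exception, with 38.0 CPM in ependymal and 26.4 CPM in other cells.

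The Spag symbol, for sperm-associated antigen, covers proteins of unlike function, and only 5 of 10 were called higher. The central pair proteins Spag6, Spag16 and Spag17 averaged 647, 441 and 333 CPM, and Spag8, an inner protein of doublets, averaged 431 CPM (SD 33.3). In other cells these 4 lay between 0.739 and 3.70 CPM. Spag1, an assembly factor of dynein arms, had 88.1 CPM against 8.37 CPM. Spag9, a scaffold of kinase signalling and motor transport with no place in the axoneme, had 183 CPM against 172 CPM, and Spag7 had 71.3 CPM against 103 CPM. Spag5, a spindle protein, and Spag4 and Spag6l had 3.53, 4.96 and 0.389 CPM. Spag6 and Spag6l are close copies, so how reads were shared between them is uncertain. The 2 rows named for the opposite strand, Spag17os and Dnah2os, had 15.3 and 1.43 CPM. The annotated exons of Spag17os and Spag17, and of Dnah2os and Dnah2, overlap on opposite strands, and without a stated strand setting their reads cannot be told apart.

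Level per length changes the order. Over the summed exon length of each gene, Rsph1 had 645 CPM per kb, Dnali1 385, Rsph9 262, Spag8 259 and Tekt1 251 CPM per kb. The highest heavy chain by this measure was Dnah12 with 52.2 CPM per kb, and Dnah6 followed with 50.2. The first 5 genes were picked as the highest per kb, so the heavy chains had to lie below them, although CPM levels were of the same order. Not every tektin lay above Dnah12 and Dnah6: Tekt3 had 28.2 and Tekt2 14.7 CPM per kb.

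The members were read together in the same cells. Here 42 members are counted that were called higher in ependymal cells and were under 10 CPM in the others. This choice used the same contrast, so the difference between the 2 sides is a description. They were read in a median of 92.9% of ependymal cells (23.5% to 99.5% by member) and 4.05% of other cells (0.195% to 24.2%). After each cell was thinned to 50000 reads the medians were 89.5% and 1.98%. An ependymal cell had reads of a median of 35 of the 42, and 20 to 41 in every ependymal cell except well F24 of plate 469. Other cells had a median of 2. Plate medians in ependymal cells ran from 33.5 on plate 044 to 36 on plate 469, so the plates of both genotypes were alike in this count. The 42 members summed to a median of 13942 CPM in an ependymal cell and 12.9 CPM in another cell. Of all 65 members, 28 were read in at least 90% of ependymal cells.

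**Figure D2:**
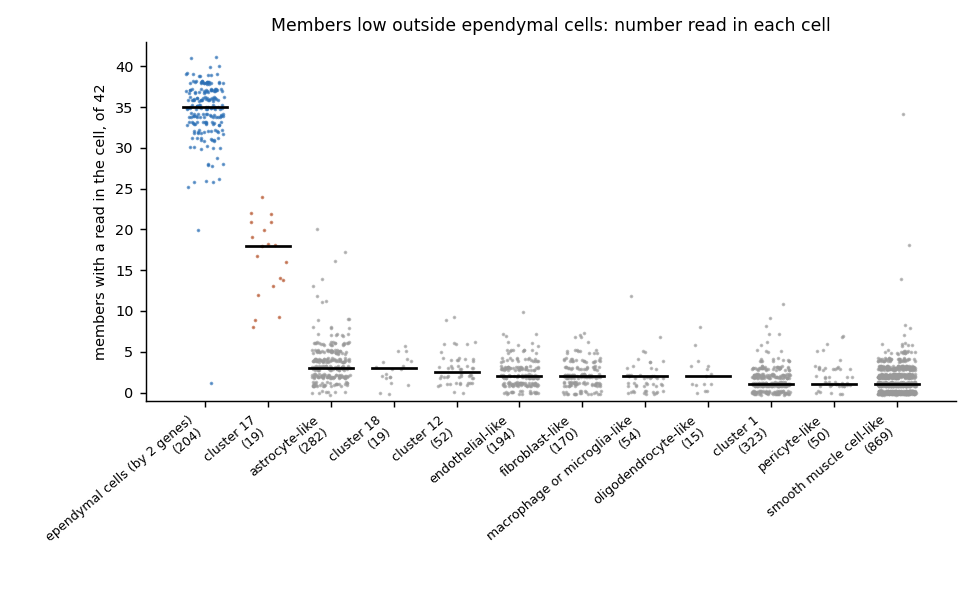
Number of the 42 members low outside ependymal cells that had a read in each cell, with 1 dot per cell and a bar at the median. Cells with a Ccdc153 and Tmem212 level of 100 CPM or more are on the left at a median of 35, the 19 cells of cluster 17 have a median of 18, and all other classes have medians of 1 to 3.

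Genes that work with the axoneme but carry other names showed the same side. All 9 dynein arm assembly factors were called higher in ependymal cells, with a median log2 difference of 5.63, among them Zmynd10 at 272 CPM and Dnaaf1 at 98.3 CPM. All 4 measured docking genes were called higher, Armc4 at 266 CPM and Ccdc114 at 233 CPM among them. So were all 11 genes of the ruler that spaces the arms and of the nexin link between doublets, where Ccdc39 had 445 CPM and Ccdc40 277 CPM. Of 20 further central pair, spoke and inner tubule genes 18 were called, with Hydin, a central pair giant, at 680 CPM. Intraflagellar transport, which builds primary cilia as well, had 19 of 23 called at a smaller median of 2.42. Cytoplasmic dynein 1, the motor of all cells, had 0 of 8 called and a median of -0.64. Of 11 measured regulator genes of multiciliated cells, not all of them transcription factors, 6 were called: Foxj1, Rfx2, Rfx3, Myb, Trp73 and Ccno. None of these lists had a member called lower. These counts stand against the same 12.2% of all genes. Between genotypes, 1 gene of these lists was called, where 4.94% of all measured genes were called higher in KO and 1.59% lower. That gene was the spoke gene Ropn1l, 1 of 20 measured in its list, with a log2 difference of 1.18 (higher in KO).

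Ependymal cells fell into states by the sum of Col6a5, Htr5b, Calb1 and Ucma, with 172 cells at 50 CPM or more (the high state) and 32 below (the low state). The highest low-state cell had 33.4 CPM and the lowest high-state cell 62.8 CPM. The low state held 2, 7 and 4 cells on KO plates 043, 467 and 471, while WT plates 044, 468 and 469 had 0, 9 and 10, so it made up 13 of 162 KO and 19 of 42 WT ependymal cells. Plates 467 and 469 had at least 5 cells of both states and were compared within plate. A member was called where the mean difference was at least 2-fold with the same direction on both plates.

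Few axoneme members differed between the states under this rule. Of 58 measured members 3 were called higher in the high state, where 18.5% of all genes were, and 2 lower, where 9.72% were. The median difference was -0.09 on the log2 scale against 0.14 over all genes. The low state of plate 469 included well F24, with 1 read member. At an ependymal limit of 200 CPM, which leaves that well out, the median of the members was -0.16. Per cell, the 42 members summed to a median of 13591 CPM in 172 high-state cells and 15978 CPM in 32 low-state cells, with medians of 35 and 34 members read. These medians pool plates. Within plates the low-state sum was higher on plates 467 (15472 against 13591 CPM), 471 (16661 against 14088), 468 (15434 against 15194) and 469 (19648 against 15360). On plate 043, with 2 low-state cells, it was lower (11831 against 12443 CPM). The members that were called are all of low level or near-identical to another gene. Dnah7c had 45.9 and 94.6 CPM in high-state cells of plates 467 and 469 and 4.97 and 22.5 CPM in low-state cells, a log2 difference of 2.50. Its copy Dnah7a went the other way, with 82.4 and 67.7 CPM in high-state and 174 and 172 CPM in low-state cells, a difference of -1.20. Reads shared by these copies could be assigned to either.

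Tekt2 had 28.0 and 38.3 CPM in high-state cells of these plates and no read in their 7 and 10 low-state cells, so no fold is given. Over all plates it was read in 47 of 172 high-state and 2 of 32 low-state cells, and both of those were on plate 468, where none of 4 high-state cells had a read. The other calls were Rsph3b, with a log2 difference of 1.53, and Spag17os, with -2.13. Among members not called, the largest differences were 2.09 for Spag1, 0.77 for Dnah14.1 and 0.75 for Spag17 upward, and -1.87 for Tekt5, -0.91 for Dnah17 and -0.67 for Tekt4 downward. With 4 cells of each state allowed, plates 471 and 468 joined, and 0 members were called higher and 1 lower. That was Dnah17 at -2.08, against 5.58% and 2.92% of all genes. Dnah7a then had a mean difference of 0.93, because none of the 4 low-state cells on plate 471 had a read of it. No call on a member was kept when those plates were added.

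No member was called different between Notch3 KO and WT ependymal cells. Of 56 measured members 0 were called higher and 0 lower in KO, where the same rule (2-fold, no overlap of 3 KO and 3 WT plates, read in at least 10% of the cells of a genotype) called 4.94% of 11440 genes higher and 1.59% lower. The median difference was -0.05 on the log2 scale against 0.15 over all genes, and 54 of 56 members (96.4%) lay within 2-fold, against 78.5% of all genes. The members and all genes were not matched for level, so these shares do not compare like genes. The high members had close means: Rsph1 had 858 CPM in KO (SD 80.8 over 3 plates) and 913 CPM in WT (SD 64.0), and Dnali1 808 (SD 63.4) and 833 CPM (SD 61.8). Cfap54 had 691 CPM (SD 67.9) and 698 CPM (SD 184), and Rsph4a 779 CPM (SD 142) and 777 CPM (SD 155). Without plate 044, 5 members passed as lower in KO (Cfap44, Cfap58, Dnah3, Dnah7a and Tekt3), 0 as higher, where 5.66% and 9.69% of 11554 genes did, and the median was -0.22. A difference between genotypes within the spread of the plates was not detectable in this design.

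Tektins came nearest to a call, in opposite directions. Tekt3 had 28.6, 30.3 and 37.6 CPM on KO plates 043, 467 and 471, while WT plates 044, 468 and 469 had 64.7, 48.9 and 86.1 CPM. All WT plates were above all KO plates, and the log2 difference of -0.999 missed the 2-fold limit narrowly. It was read in 34 of 162 KO and 14 of 42 WT ependymal cells. Tekt2 had 31.2, 26.0 and 54.6 CPM on the KO plates and 20.6, 17.5 and 18.1 CPM on the WT plates, a difference of 0.89 with no overlap. It was read in 42 of 162 KO and 7 of 42 WT cells. Both are low members read in few cells, and their call depended on the setting: Tekt3 passed with a pseudocount of 0.1 CPM, and Tekt2 passed with counts pooled over cells.

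Other members with larger differences overlapped between the genotypes. Dnah7a averaged 68.3 CPM in KO (SD 22.5) and 143 CPM in WT (SD 95.9), a log2 difference of -0.88. Cfap44 averaged 425 CPM (SD 132) and 690 CPM (SD 269), a difference of -0.66. In the other direction Spag17os differed by 1.11, from 19.8 against 10.7 CPM, and Dnah14.1 by 1.07, from 10.4 against 4.86 CPM. The genotype groups also differed in the mix of states given above and in smooth muscle RNA within ependymal cells: Acta2, the smooth muscle actin, had 895, 1319 and 1113 CPM in ependymal cells of the KO plates and 1117, 93.4 and 227 CPM in those of the WT plates. Their part in the members' values was not tested.

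Genotypes compared within narrower sets gave few and changing calls. On plates 043 and 044 alone Cfap58, Spag17 and Spag4 passed as higher in KO and Tekt3 as lower, of 56 measured members, where 20.6% and 16.9% of all genes passed. On plates 467, 468, 469 and 471 alone Tekt2 passed as higher and Cfap58, Dnah3 and Dnah7a as lower, where 12.3% and 5.46% of all genes did. Cfap58 therefore pointed opposite ways in the 2 sets of plates. In high-state cells of plates with at least 4 of them Dnah14.1 alone passed, as higher, where 8.21% of all genes passed as higher and 1.62% as lower. In low-state cells Spag5 and Spag9 passed as higher and Cfap57, Dnah12 and Dnah3 as lower, from 11 KO and 19 WT cells, where 10.5% and 18.7% of all genes did.

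**Figure D3:**
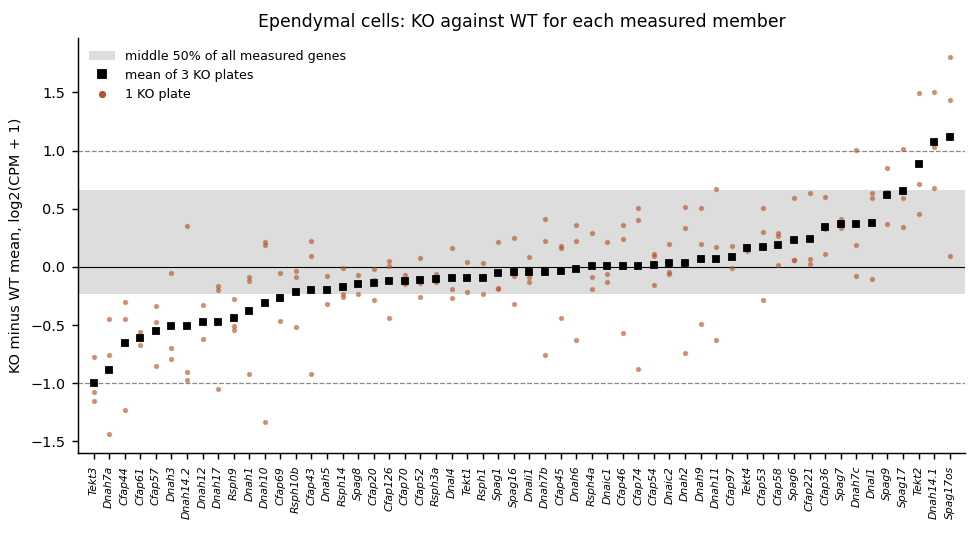
Difference between KO and WT ependymal cells for each measured member, as the KO mean minus the WT mean over 3 plates each of log2(CPM + 1). Dashed lines mark 2-fold and the grey band the middle 50% of all measured genes. 54 of 56 members lie within the dashed lines, and the lowest point is Tekt3 at -0.999.

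Plates 043 and 044 differed from the other plates in the long members, in both genotypes. Dnah10 had 121 CPM on plate 043 and 132 CPM on plate 044, and 348 to 499 CPM on the other plates. Dnah6 had 407 and 345 CPM against 731 to 931 CPM. Of the 42 members, the 11 heavy chains were all lower in the mean of plates 043 and 044, with a median difference of -1.18 on the log2 scale, and 9 of 11 lay below the other plates without overlap, as 14.9% of 11897 measured genes did. The other 31 of the 42 members had a median of -0.12. Dnah12 was the chain that differed by genotype: it was higher by 0.22 on KO plate 043 than on the other KO plates, while its log2 difference between WT plate 044 and the other WT plates was -0.94.

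The shift was largest at the greatest exon lengths, among members and, to a lesser degree, among all genes. It did not change steadily with length. At 2 to 4 kb the medians were 0.0074 for members and 0.098 for all genes. Under 2 kb, 6 of 7 members (median -0.13) and 828 of 1405 of all genes (median -0.14) were lower on plates 043 and 044. Of 12 members with exons of 12 kb or more, all 12 were lower on plates 043 and 044 (median -1.14), as were 476 of 665 of all measured genes of that length (median -0.52). Across the 42 members the difference had a Pearson r of -0.47 and a Spearman rho of -0.55 with log2 exon length, and across 10564 other genes an r of -0.10. These are correlations across genes of the same plates, which are not independent. Some shorter members went the other way: Rsph4a had 940 and 956 CPM on plates 043 and 044 against 673 to 724 CPM, and Spag6 876 and 737 CPM against 418 to 641 CPM. In all 17 members lay below and 5 above without overlap, where 10.6% of all genes lay above.

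Summed over the 11 chains, heavy chain reads were 2466 and 2097 CPM on plates 043 and 044 and 3800 to 5250 CPM on the others, while the other 31 members summed to 9881 and 9973 CPM and to 10012 to 11217 CPM. Heavy chains thus took 20.0% and 17.4% of the set on these plates and 27.5% to 31.9% on the others. Each genotype had 1 of these plates and 2 of the others. The labels do not say what sets these plates apart, and the cause was not tested.

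**Figure D4:**
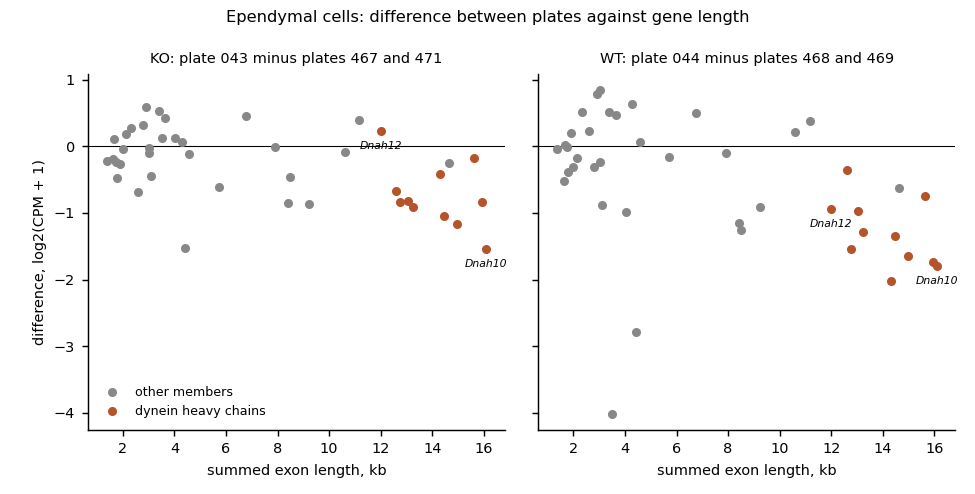
Difference in ependymal cells between plate 043 and the other KO plates (left) and between plate 044 and the other WT plates (right), on the log2(CPM + 1) scale, against summed exon length in kb. Each dot is 1 of 42 members, with the 11 dynein heavy chains coloured. They lie at the long end and mostly below 0 in both panels, Dnah12 on the KO side being above.

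Some members were also read in cells outside the ependymal rule. Cilia were not observed, and these cells include well D20 of plate 467 and the unnamed cluster 17 described below, which held many of the members. A mean of 10 CPM or more in the cells outside the ependymal rule was reached by 12 of 65: Spag9 172 CPM, Spag7 103 CPM, Cfap20 84.7 CPM, Cfap36 57.7 CPM, Cfap43 56.0 CPM, Dnal4 47.9 CPM, Rsph9 29.3 CPM, Cfap97 26.4 CPM, Dnah14.2 22.8 CPM, Dnal1 16.0 CPM, Dnah7b 13.6 CPM and Cfap74 10.0 CPM. For 8 of them ependymal cells were still called higher, Cfap20 by 4.28-fold, Cfap43 by 9.36-fold and Rsph9 by 16.0-fold. The other 4 were Spag9, Spag7, Cfap97 and Dnah14.2. To see which cells held these reads, cells were clustered on genes without the members, the ependymal and state genes and Notch3, and clusters were named only from fixed marker lists. The classes lie unevenly on the plates: astrocyte-like and macrophage or microglia-like cells came almost all from WT plates 468 and 469, so a mean over all other cells depends on the plate.

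Each of these members had its own pattern over classes. Spag9 had 555 and 606 CPM in astrocyte-like cells of plates 468 and 469, and class means of 69.9 to 238 CPM elsewhere. Dnah7b had 68.0 and 89.9 CPM in astrocyte-like cells, near its 97.7 CPM in ependymal-like cells, and at most 28.9 CPM in any other class. It was read in 47.5% of astrocyte-like cells after thinning. Its near-identical copies Dnah7a and Dnah7c had 3.25 and 6.65 CPM there. The intermediate chain Dnaic1 had 36.9 CPM, Cfap74 33.7 CPM and the spindle gene Spag5 46.8 CPM in astrocyte-like cells, and in that order they were at most 0.30, 8.26 and 0.57 CPM in smooth muscle cell-like, fibroblast-like, endothelial-like and pericyte-like cells.

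Cfap43 ran the opposite way, with 84.2 CPM in smooth muscle cell-like cells (55.2 to 114 CPM over 6 plates) and 0.09 CPM in astrocyte-like cells. Exons of Cfap43 and its neighbour Itprip overlap on the same strand, and reads there cannot be told apart. Dnah3 had 25.3 CPM in endothelial-like cells, with plates from 0 to 50.4 CPM, and at most 11.1 CPM in the other named classes outside ependymal-like cells. Its exons overlap those of Lyrm1 on the opposite strand, whose reads cannot be told apart from its own. Dnah17 had 32.7 and 52.1 CPM in macrophage or microglia-like cells of plates 468 and 469, above its 13.1 CPM in ependymal-like cells. Cluster 17, an unnamed cluster, had a similar mean of 46.8 CPM (15.6 to 77.9 CPM over 2 plates). Exons of Dnah17 overlap those of Pgs1 and Gm11738 on the opposite strand, and reads there cannot be told apart. Rsph9 had 85.5 CPM in astrocyte-like cells and 151 CPM in cluster 12, an unnamed cluster led by Prss56 and Gdpd4. Cfap36 reached 186 CPM in the 11 oligodendrocyte-like cells of plate 468, the only plate used for this class. Cfap20, which closes the seam between the tubules of a doublet, and Spag7 had means of at least 43.2 CPM in all classes.

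**Figure D5:**
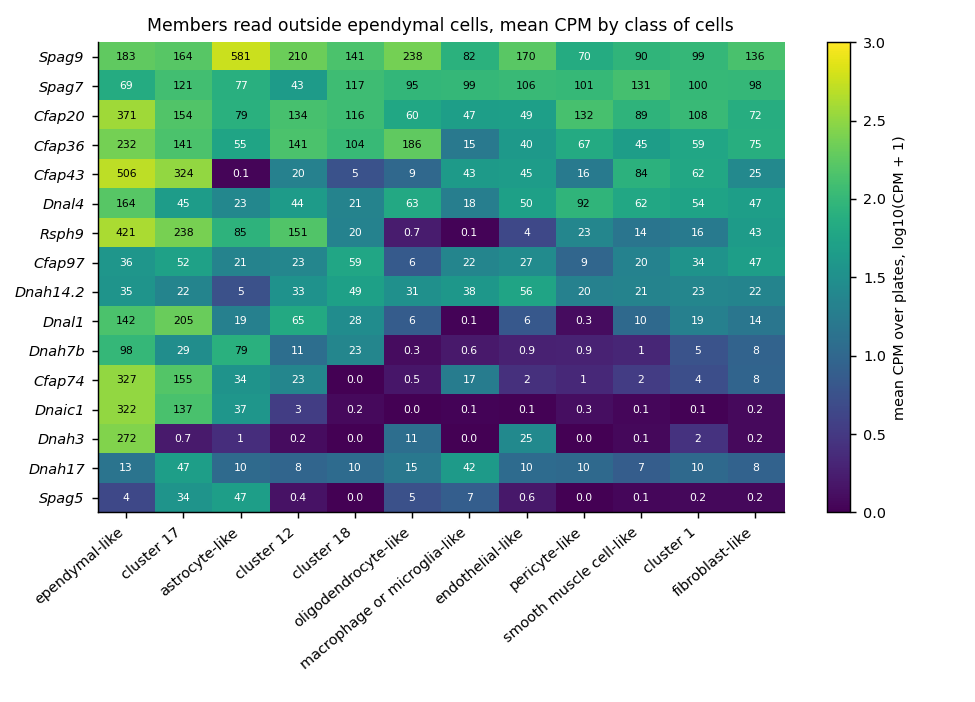
Mean level over plates (CPM, log colour scale) of 16 members in 12 classes of cells, clustered without the members. Spag9 and Dnah7b are high in astrocyte-like cells at 581 and 78.9 CPM, Cfap43 in smooth muscle cell-like cells at 84.2 CPM, and cluster 17 has intermediate values for most members.

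A small group outside the ependymal rule held a large part of the set. Cluster 17 had 19 cells, 2 on plate 471, 5 on 468 and 12 on 469, and was singled out after its values were seen. None of the fixed marker lists fitted it, and it stays unnamed. Its leading genes were Gpr50, Rax and Nkx2-1, at 1172, 181 and 137 CPM against 10.3, 0.10 and 5.66 CPM in ependymal cells. Ccdc153 and Tmem212, which define the ependymal cells here, were at 0.45 and 0.15 CPM in it, and Foxj1 was read in 11 of 19 cells at 21.8 CPM. Each cell had reads of a median of 18 of the 42 members (8 to 24), between 35 in ependymal cells and 1 to 3 in the other classes.

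Within cluster 17 the members did not scale down together. Of the 42, 39 were read in at least 1 cell, 30 stood at 10% or more of their ependymal level, 13 at 25% or more and 6 under 2%, with a median of 15.9%. The ependymal level here is the mean over 6 plates, while cluster 17 had no cells on plates 043 and 044, where heavy chains were low. Shares of heavy chains are therefore raised: ependymal Dnah9 had 525, 508 and 601 CPM on plates 471, 468 and 469, against a mean of 414 CPM. The highest share was that of the inner tubule gene Cfap126, at 172 CPM (65.7% of the ependymal level). The outer arm chains were spread, with Dnah11 at 152 CPM (53.1%), Dnah9 at 182 CPM (43.9%) and Dnah5 at 45.7 CPM (11.1%). On its 2 larger plates Dnah9 had 19.5 CPM (plate 468) and 280 CPM (plate 469), so its share rests mostly on plate 469. The inner arm chains were spread as well: Dnah7a and Dnah2 stood at 24.8% and 24.1%, Dnah6 at 11.6%, Dnah12 at 8.67%, Dnah7c at 6.69%, Dnah1 at 5.60%, Dnah10 at 1.34% and Dnah3 at 0.23%. The central apparatus gene Cfap221 was at 1.25%. Tekt3, Cfap58 and Spag17os had no read in the 19 cells, but these are read in few ependymal cells as well. Without this cluster the same 50 members were called higher in ependymal cells, and Cfap74 fell to 8.60 CPM in the other cells, under the 10 CPM that 11 members then reached.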

How the data were processed

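The values deposited by the authors are raw counts of reads, 1 row per gene and 1 column per cell. The submitters' processing notes name TopHat2 2.1.1, SAMtools 0.1.18, featureCounts of Subread 1.4.6-p5 and the build GRCm38 (mm10). The annotation version, strand setting and any cell filter are not given in the sources used here. All columns of cells were used. Each count was divided by the cell's total and scaled to CPM, averaged over the cells of a plate, and compared as log2(mean CPM + 1). Members and gene lists were chosen with earlier results of these data known, and the labels name no animal, so calls rest on size and on overlap of plates, without a test. Those rules were tested on simulated data.

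Cells were clustered on 2000 variable genes without the members, the ependymal and state genes and Notch3 into 19 clusters (scikit-learn 1.9.0 for 30 principal components and 20 neighbours, igraph 0.11.9 and leidenalg 0.10.2 for the Leiden method at resolution 1). A cluster was named where a marker list led it at a scaled level of at least 0.8 with 3 or more markers in 25% of its cells, thresholds set after the cluster tables were seen. No doublet caller was run. TMM factors for an alternative came from edgeR 4.0.16. Named were up to 4 members per role by level, the 5 highest per kb, the 12 at 10 CPM or more outside ependymal cells, those called, the 3 largest uncalled differences in each direction, and near-identical copies. Members described by their values per class, per plate or in cluster 17 outside this rule were chosen after those values were seen. Exon lengths came from GENCODE annotation for GRCm38 and matched 63 of 65 members.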

Additional observations from a re-analysis of the deposited data

How the results depend on the processing

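The higher level in ependymal cells did not depend on the processing: 50 members were called under the alternatives tried, except 52 with a minimum of 1 CPM and 48 without 33 ependymal cells of high second-class markers, with 0 lower throughout. Its median was 7.04 with a pseudocount of 0.1 CPM, and 6.14 to 6.54 when each plate was left out in turn. Leaving out plates moved the members at 10 CPM or more in other cells between 10 and 13.

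For the states, the median was -0.16 with the ependymal limit at 200 CPM, -0.022 with TMM factors, -0.15 without second-class cells and -0.011 with the state limit at 20 CPM, where 1 member was lower. Leaving out a plate gave 3 to 7 higher (7 without plate 467, 5 without plate 469), 2 to 8 lower (8 without plate 469) and medians of -0.16 to -0.089. Without plate 467 or plate 469 only 1 plate was left, so the rule of the same direction on both plates set no limit. The share of all genes called was not taken for the state alternatives up to here, so their counts cannot be set against it. With 4 cells of each state, an alternative chosen after seeing the data, 0 were higher and 1 lower, the median was -0.070, and Dnah7a reversed to 0.93 from -1.20.

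For KO against WT, 1 member was lower (Tekt3) with ependymal limits of 50 or 200 CPM or a pseudocount of 0.1 CPM, and 1 higher (Tekt2) with pooled counts, TMM factors or cells thinned to 50000 reads. Without second-class cells, where plate 044 kept 9 cells and fell out, 6 were lower and the median was -0.32. High-state cells alone, with plate 044 as the only WT plate, gave 7 higher, 1 lower and a median of 0.15. The share of all genes called was not taken for these or the preceding settings of this paragraph. Their counts therefore cannot be set against it and are no result about the members. Plates 043 and 044 alone gave 3 higher and 1 lower, and plates 467, 468, 469 and 471 alone 1 higher and 3 lower. With at least 4 cells a plate, chosen after seeing the data, the high state gave 1 higher and the low state 2 higher and 3 lower. Leaving out a plate gave 0 to 1 higher, 0 to 5 lower (5 without plate 044) and medians of -0.22 to 0.0059. Of these leave-outs, the share of all genes was taken only without plate 044, as given above. The low state alone with 10 cells a plate was not run, since no KO plate had them. No paired analysis was possible because the labels name no animal and cells carry no replicate number that could pair the genotypes.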

Other observations

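Well K24 of plate 467 had reads of 34 of the 42 members that were low outside ependymal cells, at a summed level of 346 CPM, with 10364 detected genes and smooth muscle genes leading. Well K24 of plate 471, also among smooth muscle cell-like cells, had 18 members, 125 CPM and 11036 genes. Well D20 of plate 467, with no read of Ccdc153 or Tmem212, had 26 members at 7020 CPM and grouped with ependymal cells. Well F24 of plate 469, an ependymal cell by rule at 177 CPM, had 1 member at 5.72 CPM and grouped with cluster 12.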
